A study of Macaca mulatta with 449 samples.

Results

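The comparison described here set the prefrontal gyri of the rhesus macaque (*Macaca mulatta*) against the precentral gyri of the same animals. The prefrontal side was the middle frontal gyrus (MFG), the inferior frontal gyrus (IFG) and the posterior part of the superior frontal gyrus (labelled SFG). The precentral side was the superior (SPrCG) and the inferior precentral gyrus (IPrCG). The members were chosen by sub-region label alone: the counts of the 3 prefrontal and of the 2 precentral libraries were summed within each animal. This used 40 of the 408 libraries in the count table, 24 prefrontal and 16 precentral, and gave 8 sums a side. The animals, named Rhesus 2, 3, 4, 6, 7, 8, 10 and 11, were healthy and untreated, with no transgene or other genetic change. Rhesus 2, 3, 7 and 8 were male and Rhesus 4, 6, 10 and 11 female. Rhesus 4 (3.2 years), 7 (4 years), 8 (3.8 years) and 10 (5 years) were young, and Rhesus 2, 3 and 6 (10 years) and 11 (9.8 years) were mid-aged. Each library came from 1 small piece of tissue cut out of the chilled brain and frozen afterwards, so it averages over cortical layers, cell types and any white matter below the cortex.

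The precentral gyrus holds the primary motor cortex, whose layer 5 contains very large pyramidal neurons that send long, fast, heavily myelinated axons to the spinal cord, and which has little or no layer 4. Prefrontal cortex serves working memory and planning, has a granular layer 4, is lightly myelinated and is rich in receptors for neuromodulators. Myelin is made by oligodendrocytes, neurofilaments stiffen large axons, and fast-spiking interneurons marked by parvalbumin carry channels that let them fire at high rates. In the macaque the posterior part of the superior frontal gyrus includes premotor cortex, which lies between the prefrontal and the motor areas.

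Between 8156579 and 16850230 reads per library were counted on genes in the 40 libraries (median 10375809). The sums held 27555132 to 37550935 counts on the prefrontal and 16355759 to 25513872 on the precentral side. Levels are given as CPM, the count of a gene relative to the total of its library or sum after scaling by the TMM method of edgeR. A gene was called at FDR < 0.05 (Benjamini-Hochberg) in edgeR's quasi-likelihood test with the animal as a block. Values after ± are standard errors of the log2 fold change (log2FC), which is positive where the prefrontal side was higher. All 10 genes of the fixed pan-neuronal list were measured, with a mean log2(CPM + 1) of 9.78 to 10.00 in the prefrontal and 9.64 to 9.90 in the precentral sums, so neuronal transcripts were plentiful on both sides. Among the other 4 libraries of its animal, the one most like SFG by Pearson correlation of log2(CPM + 1) across genes was MFG in 5 animals, IPrCG in 2 and SPrCG in 1, and the label SFG is therefore described on its own below.

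Of 15647 genes tested, 2842 (18.2%) were called, 1489 (9.52%) higher in the prefrontal gyri and 1353 (8.65%) higher in the precentral gyri. The differences were mostly small: the median absolute log2FC of the called genes was 0.35, and 174 genes passed a fold of 2, 84 of them higher in the prefrontal and 90 in the precentral gyri. The direction was the same in all 8 animals for 1674 of the called genes. The ranges of the 2 sides did not overlap for 166 genes (1.06% of those tested), of which 61 were higher in the prefrontal and 105 in the precentral gyri. The median log2FC of all genes tested was 0.0036. The counts of list members given below stand against these shares of all genes, 9.52% called higher in the prefrontal and 8.65% in the precentral gyri. The number of calls moved by over 1.5 times when SPrCG was left out (1336 calls) or IFG was left out (1792 calls), and it fell to 114 when the myelin level of each sum entered the fit as a covariate. That level did not overlap between the sides, so the covariate and the grouping carry much of the same information. Of the genes named below, *RXFP1*, *CRYM*, *PDYN*, *CD53*, *SYT1*, *ELAVL4*, *RORB* and *FEZF2* were called with the covariate, all higher on the prefrontal side. Their log2FC and standard errors were all larger than in the main fit. *RXFP1* had 4.29 ± 0.70 against 2.14 ± 0.17 and *ELAVL4* 1.44 ± 0.26 against 0.25 ± 0.08. No sums of the 2 sides had the same myelin level, so these values cannot be read as differences at equal myelin.

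Genes of oligodendrocytes and myelin were the most uniform group, and all of them were higher in the precentral gyri. All 10 tested members of the list were called in that direction, with log2FC from -1.68 to -0.86 and a median of -1.43. *MBP* (ENSMMUG00000011333), which encodes myelin basic protein, had 735 to 1400.5 CPM (median 981) in the prefrontal and 2019 to 4321 CPM (median 2867) in the precentral sums (log2FC -1.52 ± 0.07, FDR = 2.13e-08). *MOBP*, a further protein of compact myelin, had 11.8 to 18.5 CPM (median 16.6) and 33.9 to 52.8 CPM (median 42.2) (log2FC -1.43 ± 0.06, FDR = 1.53e-08). For both genes every precentral sum lay above every prefrontal sum. The same held for *MOG*, a glycoprotein on the outer face of myelin (log2FC -1.46 ± 0.09, FDR = 1.58e-07), and *GJB1*, a connexin of oligodendrocytes (log2FC -1.68 ± 0.11, FDR = 3.08e-07).

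The mean log2(CPM + 1) of the 10 myelin genes ran from 4.64 to 5.65 in the prefrontal and 5.96 to 7.04 in the precentral sums. The difference was -1.32 ± 0.26 (SD, n = 8), lower on the prefrontal side in 8 of 8 animals (two-sided p = 0.00781 by an exact permutation test that flips signs, a value that 8 animals cannot go below, adjusted p = 0.0156 over 10 marker lists). In these bulk samples, more oligodendrocytes and more myelin RNA per oligodendrocyte cannot be told apart. How much white matter each piece held was not tested. With the myelin level as a covariate *MBP* had a log2FC of -0.60 and was not called. *MBP* is itself part of that level, so this fit cannot decide whether *MBP* differs.

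Several genes outside the list led the precentral excess. *CNDP1*, a carnosine-cleaving peptidase, had 7.96 to 38.7 CPM (median 17.6) against 38.1 to 111 CPM (median 65.9) (log2FC -1.91 ± 0.16, FDR = 1.7e-06), and the ranges overlapped slightly. *S1PR5*, a sphingosine-1-phosphate receptor found on oligodendrocytes, had 2.05 to 4.51 CPM (median 2.32) against 5.17 to 10.6 CPM (median 7.94) (log2FC -1.62 ± 0.11, FDR = 2.49e-07) without overlap. *ANLN*, for the septin-binding protein anillin, had 21.6 to 40.8 CPM (median 30) against 67.9 to 113 CPM (median 78.7) (log2FC -1.46 ± 0.12, FDR = 1.08e-06), likewise without overlap. All 3 were lower on the prefrontal side in each animal, which the rule for naming them required. *PPP1R14A* (-1.52), *TMEM125* (-1.53), *GPR62* (-1.56) and *NPC1L1* (-1.50) had log2FC of similar size at lower levels. *TICRR*, a factor of DNA replication, had the largest log2FC (log2FC -2.20 ± 0.23, FDR = 1.27e-05), at 0.106 to 0.481 CPM (median 0.286) against 0.688 to 1.91 CPM (median 1.46), a level at which the counts are few. *THBS4*, the matrix protein thrombospondin 4, had 0.802 to 3.59 CPM (median 1.65) against 2.17 to 9.68 CPM (median 6.05) (log2FC -1.63 ± 0.14, FDR = 1.69e-06).

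**Figure D1:**
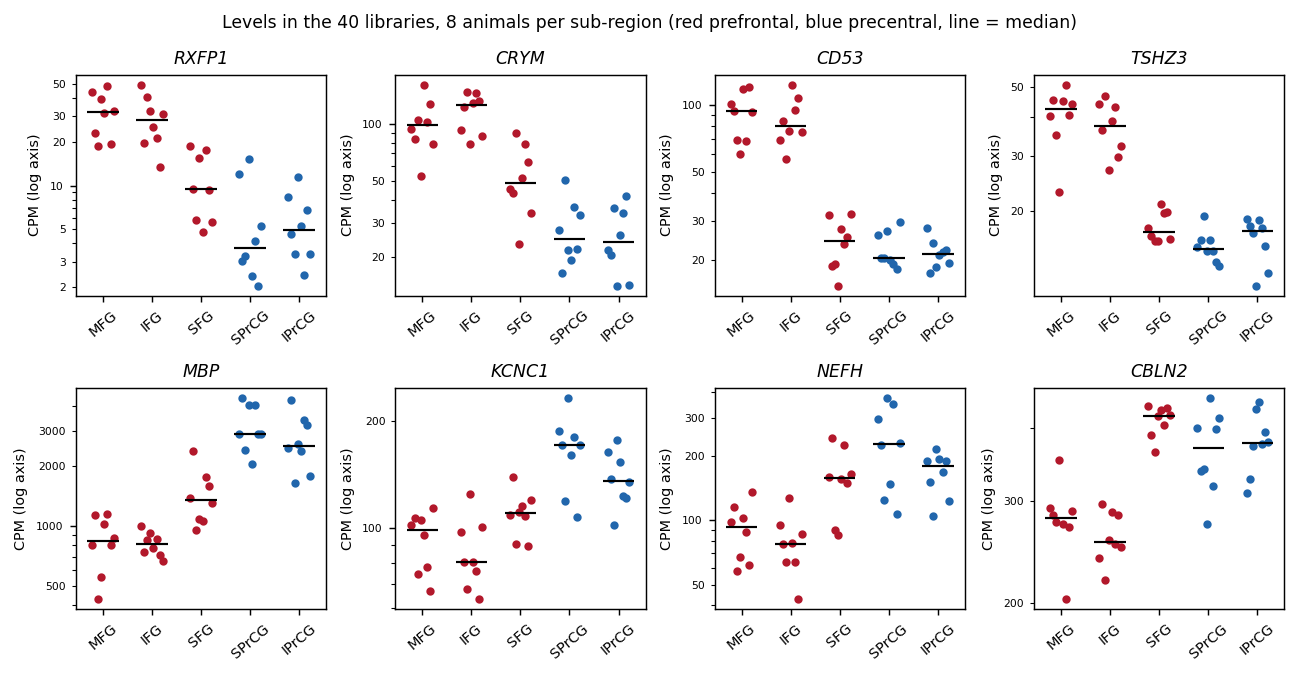
Level in CPM (log axis) of 8 genes in the 40 libraries, 1 point per animal in each of the 5 sub-regions, red for the prefrontal and blue for the precentral gyri, with the median as a line. *RXFP1*, *CRYM*, *CD53* and *TSHZ3* were higher in the prefrontal sums, while *MBP*, *KCNC1*, *NEFH* and *CBLN2* were higher in the precentral sums. The SFG libraries lay between the sides for *MBP* and *CRYM* and at the precentral level for *CD53* and *TSHZ3*. For *CBLN2* SFG had the highest mean of the 5 sub-regions.

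Most members of the lists of neurofilaments and of fast firing that were called were higher in the precentral gyri, with 1 called the other way. Of the neurofilament list, 3 of 4 tested members were called, all in that direction (median log2FC -0.30). *NEFH*, the heavy neurofilament chain, had 70.1 to 144 CPM (median 114) in the prefrontal and 114 to 302 CPM (median 185) in the precentral sums (log2FC -0.85 ± 0.11, FDR = 0.000106). The ranges overlapped, but the precentral sum was the higher one in each of the 8 animals. *INA*, alpha-internexin (log2FC -0.26 ± 0.06, FDR = 0.00595), and *NEFM*, the medium chain (log2FC -0.35 ± 0.11, FDR = 0.0367), differed less. The call of *NEFM* was lost without Rhesus 2, 8, 10 or 11 (log2FC -0.37 to -0.32). *NEFL*, the light chain, was not called (log2FC -0.06 ± 0.09, FDR = 0.693), with 740.3 to 1118 CPM (median 982) against 804 to 1267 CPM (median 994).

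Of the list of fast-spiking and fast-release genes, 11 of 18 tested members were higher in the precentral gyri and 1 in the prefrontal gyri (median -0.32). For *KCNC1* (ENSMMUG00000006403), the potassium channel Kv3.1, the sums held 73.4 to 113 CPM on the prefrontal and 110.2 to 207 CPM on the precentral side (log2FC -0.66 ± 0.05, FDR = 1.13e-06), higher on the precentral side in all 8 animals with slightly overlapping ranges. The estrogen-related receptor *ESRRA*, a regulator of mitochondrial genes (log2FC -0.49 ± 0.07, FDR = 0.000197), and the pacemaker channel *HCN2* (log2FC -0.39 ± 0.06, FDR = 0.000269) were higher there too. All 3 of these genes were lower on the prefrontal side in each of the 8 animals. Parvalbumin, the calcium-binding protein *PVALB*, had 14.8 to 37.7 CPM (median 27.8) against 31.6 to 60.3 CPM (median 40.1) (log2FC -0.75 ± 0.12, FDR = 0.000653), lower on the prefrontal side in each animal. The member with the opposite sign was *KCNC2* (log2FC 0.22 ± 0.07, FDR = 0.0435), the related channel Kv3.2, named here after its value was seen. The myelin genes, the neurofilaments and these channels were higher in the same precentral sums, and the part of the myelin level in the other differences was not tested beyond the fit with the covariate, in which *KCNC1* had a log2FC of -0.22 and *NEFH* 1.07, neither of them called.

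Of the interneuron list, 5 of 25 tested members were higher and 5 lower in the prefrontal gyri, against 9.52% and 8.65% of all genes. Higher were *HTR3A*, a serotonin-gated channel of superficial interneurons (log2FC 1.70 ± 0.16, FDR = 4.39e-06), the calcium-binding protein calretinin, *CALB2* (log2FC 0.42 ± 0.10, FDR = 0.00743), the peptides *CRH* (log2FC 0.36 ± 0.07, FDR = 0.00359) and *SST* (log2FC 0.26 ± 0.08, FDR = 0.0358), and the transcription factor *LHX6* (0.25). Besides *PVALB*, the matrix protein reelin, *RELN* (log2FC -0.35 ± 0.07, FDR = 0.00221), and *CHODL* (-0.64), *NDNF* (-0.29) and neuropeptide Y, *NPY* (-0.28), were lower. *LHX6*, *CHODL*, *NDNF* and *NPY* are named after their values were seen. The peptide *VIP* was not called (log2FC 0.10 ± 0.06, FDR = 0.272), and the call of *SST* was lost without any 1 of Rhesus 2, 3, 4, 6, 7 and 11 (log2FC 0.18 to 0.28). Of the perineuronal net list, which covers the matrix coat around fast-spiking cells, 3 of 10 tested members were called. The link protein *HAPLN4* was lower in the prefrontal gyri, with 48.5 to 157 CPM (median 87.3) against 93.9 to 291 CPM (median 195) (log2FC -1.17 ± 0.08, FDR = 2.49e-07), whereas tenascin C, *TNC* (log2FC 0.95 ± 0.12, FDR = 6.79e-05), and tenascin R, *TNR* (log2FC 0.69 ± 0.17, FDR = 0.0127), were higher.

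The largest prefrontal excess was seen in a set of peptide, receptor and layer genes. *RXFP1* (ENSMMUG00000004647), the receptor of the peptide relaxin and a gene of deep-layer neurons, had 14 to 37.6 CPM (median 22.6) in the prefrontal and 3.27 to 13.4 CPM (median 4.12) in the precentral sums (log2FC 2.14 ± 0.17, FDR = 1.08e-06). *CRYM* (ENSMMUG00000016764), a thyroid hormone-binding crystallin expressed in deep-layer neurons, had 51.6 to 115 CPM (median 95.1) against 18.1 to 43.4 CPM (median 24.7) (log2FC 1.73 ± 0.10, FDR = 6.65e-08). For both genes every prefrontal sum was above every precentral one. *CARTPT* (ENSMMUG00000015177), the precursor of the peptide CART, had the largest log2FC of the genes named (log2FC 2.88 ± 0.24, FDR = 1.64e-06), at the low levels of 1.25 to 5.33 CPM (median 4.13) against 0.159 to 1.05 CPM (median 0.433). *PDYN*, which encodes the precursor of dynorphin opioid peptides, had 20.4 to 59.2 CPM (median 44.3) against 9.49 to 25.9 CPM (median 12.1) (log2FC 1.62 ± 0.12, FDR = 7.16e-07), with overlapping ranges. These peptide genes shared the direction, though not the level. Gastrin-releasing peptide, *GRP*, had 0.871 to 4.44 CPM (median 2.29) against 0.212 to 2.04 CPM (median 0.519) (log2FC 1.59 ± 0.21, FDR = 0.000102). The calcium pump *ATP2B4* had 37.9 to 98.9 CPM (median 63.3) against 9.32 to 34 CPM (median 21.1) (log2FC 1.64 ± 0.15, FDR = 2.97e-06) without overlap. *GPR6*, an orphan receptor known from striatal neurons (log2FC 1.74 ± 0.21, FDR = 5.45e-05), *TRABD2A*, a Wnt-cleaving protease (log2FC 1.89 ± 0.29, FDR = 0.00039), and the serpin *SERPINB13* (log2FC 1.67 ± 0.14, FDR = 1.73e-06) had small counts, each with a median under 3 CPM on the prefrontal side. These genes, with *TSHZ2*, *HTR3A* and *CD53* described below, made up the 12 that led the prefrontal excess, and all 12 were higher on the prefrontal side in 8 of 8 animals, which the rule for naming them required.

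*CD53* (ENSMMUG00000000811), a tetraspanin best known from leukocytes, had 49.4 to 88.6 CPM (median 66) in the prefrontal and 18.8 to 26.8 CPM (median 21.2) in the precentral sums (log2FC 1.59 ± 0.10, FDR = 2.49e-07), with no overlap. Microglia are the main resident immune cells of the brain, and none of their list's 5 tested members, *P2RY12*, *CSF1R*, *TREM2*, *C1QC* and *ITGAM*, was called by edgeR, 0 had an unadjusted p under 0.05 and DESeq2 also called 0. Their log2FC lay between -0.19 and 0.04. Of the 10 genes listed for microglia, these 5 were the ones matched by symbol, and their values in a second pair of regions are given below. How the counting treated strand and overlaps is not given in the sources used here, so reads of a gene overlapping *CD53* cannot be told apart from its own.

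**Figure D2:**
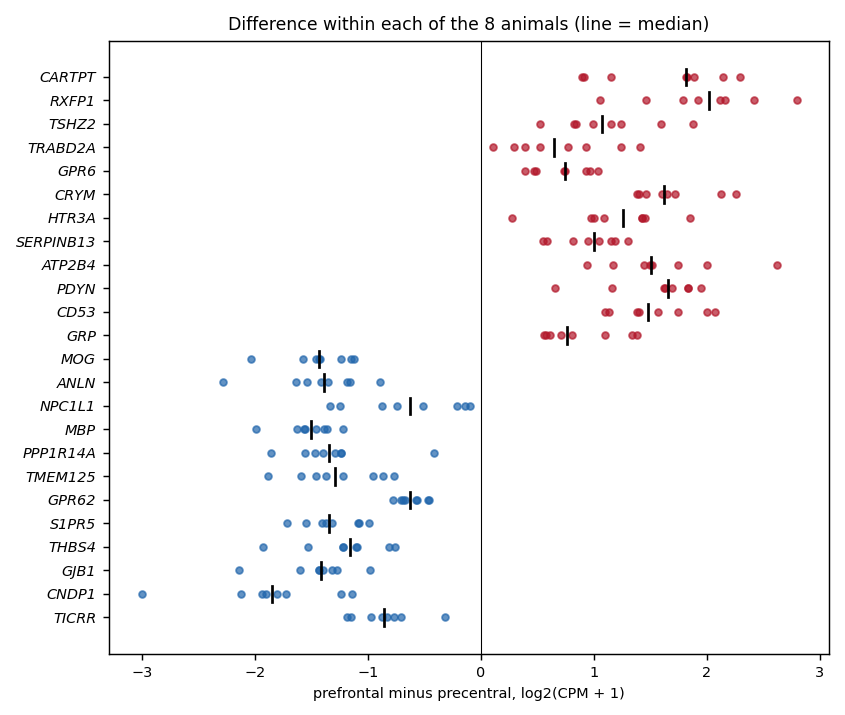
Prefrontal minus precentral difference in log2(CPM + 1) within each animal (1 point each, 8 per gene) for the 12 genes named in each direction, red where the prefrontal and blue where the precentral side was higher, with the median as a line. All points of a gene lie on 1 side of 0, and *MBP*, *MOG* and *CRYM* have a narrower spread between animals than *CNDP1*.

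Layer genes were called in both directions within each list. Of the 14 tested members of the layer 6 list, 8 were higher and 1 was lower in the prefrontal gyri (median 0.32). Besides *RXFP1*, *SYNPR*, a synaptic vesicle protein, had 199 to 321 CPM (median 263) against 139 to 273 CPM (median 181) (log2FC 0.49 ± 0.05, FDR = 1.4e-05). *CCN2*, a matricellular protein of the deepest cortical neurons (log2FC 0.55 ± 0.09, FDR = 0.000471), and netrin G2, *NTNG2* (log2FC 0.35 ± 0.07, FDR = 0.0046), were also higher. The lower member was *THEMIS* (log2FC -0.92 ± 0.25, FDR = 0.019), named after its value was seen. In the layer 5 list, 5 of 16 tested members were higher, namely *CRYM*, *PDE1A* (log2FC 0.81 ± 0.07, FDR = 4.07e-06), *VAT1L* (log2FC 0.63 ± 0.09, FDR = 0.000154), *HTR2C* and *FEZF2* (log2FC 0.80 ± 0.18, FDR = 0.00731), and 4 were lower (median 0.13). The lower ones, named after their values were seen, were *PCP4* (-0.80), *POU3F1* (-0.66), *CHST8* (-0.32) and *KCNN2* (-0.24). *FEZF2* specifies subcerebral projection neurons, and *BCL11B*, which acts downstream of it, was not called (log2FC 0.06 ± 0.13, FDR = 0.789).

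Of the list of superficial and layer 4 neurons, 6 of 13 tested members were higher and 3 lower in the prefrontal gyri (median 0.17). *RORB*, a nuclear receptor and a standard layer 4 gene, had 13.9 to 44.8 CPM (median 20.8) against 5.67 to 26 CPM (median 12.1) (log2FC 0.98 ± 0.20, FDR = 0.00302), higher in 7 of 8 animals with wide overlap. *CALB1*, the calcium-binding protein calbindin, was higher in 8 of 8 animals (log2FC 0.52 ± 0.06, FDR = 3.38e-05), and so was the ubiquitin ligase *PDZRN3* (log2FC 0.44 ± 0.08, FDR = 0.00107). *SERPINE2*, a protease inhibitor, was lower in all 8 (log2FC -0.27 ± 0.05, FDR = 0.000885), and the other 2 lower members, named after their values were seen, were *RASGRF2* (-0.25) and *CUX1* (-0.17). *CUX2*, a marker of upper layers, was not called (log2FC 0.14 ± 0.08, FDR = 0.266).

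**Figure D3:**
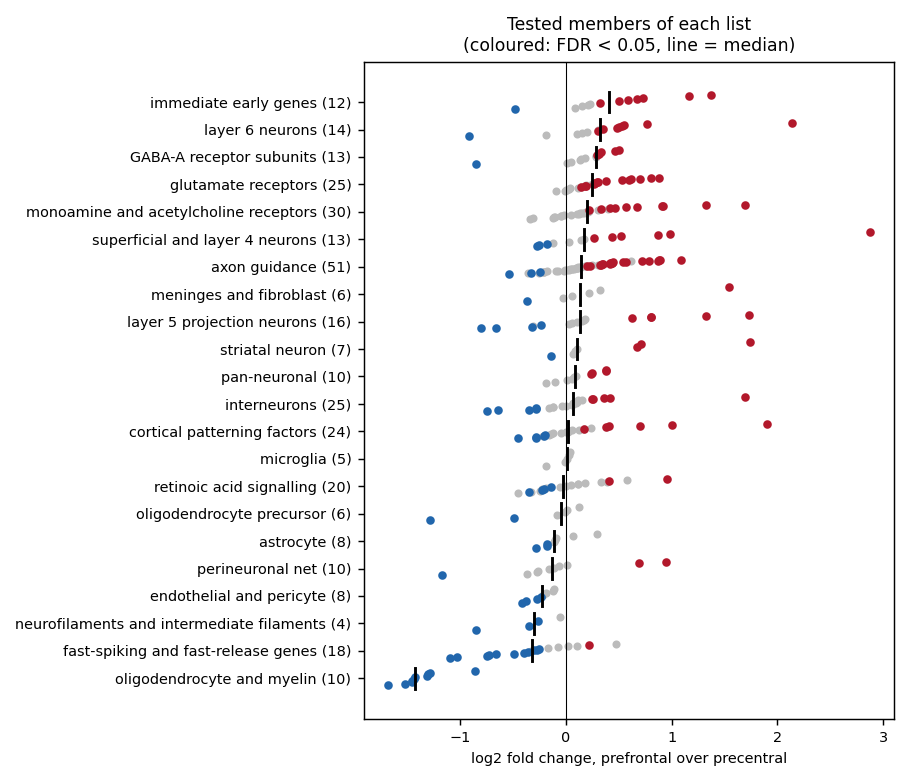
Log2 fold change of prefrontal over precentral for every tested member of the 22 lists with at least 4 tested genes, the number tested in brackets, red or blue where FDR < 0.05, grey otherwise, with the list median as a line. The oligodendrocyte list is the one whose members all lie on the precentral side and all passed the test, while the receptor lists lie mostly to the right of 0.

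Receptors of glutamate, the main excitatory transmitter, were higher in the prefrontal gyri wherever they were called. Of 25 genes, 15 were called, all in that direction, against 9.52% of all genes, and their median log2FC over all 25 was 0.25. The called values ran from 0.14 for the AMPA receptor subunit *GRIA4* to 0.88 for the kainate receptor subunit *GRIK3*, with 0.81 for the NMDA receptor subunit *GRIN2B*, the 3 named after their values were seen. By the naming rule, the metabotropic receptor *GRM8* had 16.4 to 28.7 CPM (median 22.5) against 10.9 to 19.4 CPM (median 15.5) (log2FC 0.53 ± 0.07, FDR = 0.00011). *GRM7*, a presynaptic receptor of the same family (log2FC 0.27 ± 0.05, FDR = 0.00148), and the kainate receptor subunits *GRIK1* (log2FC 0.28 ± 0.05, FDR = 0.00122) and *GRIK5* (log2FC 0.30 ± 0.05, FDR = 0.00134) were higher in 8 of 8 animals. For these 4 genes the ranges of the 2 sides overlapped, and the differences showed within animals.

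Receptors of serotonin, dopamine, noradrenaline and acetylcholine showed the same direction in fewer members. Of 30 tested genes, 10 were called, all higher in the prefrontal gyri by edgeR, against 9.52% of all genes (median 0.20), and DESeq2 called 9 higher and 1 lower. The serotonin receptor channel *HTR3A* had 1.43 to 9.62 CPM (median 6.54) against 0.454 to 2.95 CPM (median 1.57), and the serotonin receptor *HTR2C* had 2.57 to 9.43 CPM (median 7.29) against 1.59 to 3.97 CPM (median 2.57) (log2FC 1.32 ± 0.19, FDR = 0.000189). The nicotinic subunit *CHRNB2* (log2FC 0.33 ± 0.05, FDR = 0.000251) and the muscarinic receptor *CHRM3* (log2FC 0.22 ± 0.05, FDR = 0.00478) were higher in 8 of 8 animals. *ADRA2A*, the adrenergic receptor through which noradrenaline acts on prefrontal pyramidal neurons, had 3.64 to 8.30 CPM (median 6.37) against 2.38 to 8.62 CPM (median 3.55) (log2FC 0.57 ± 0.15, FDR = 0.0171), higher in 7 of 8 animals. *DRD5*, the second receptor of the D1 class, was higher (log2FC 0.91 ± 0.24, FDR = 0.0179) and is named after its value was seen. *DRD1*, the D1 dopamine receptor, was not called (log2FC 0.11 ± 0.06, FDR = 0.226), with 47.9 to 72.5 CPM (median 54.5) against 35.2 to 65.2 CPM (median 53.7).

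Among 13 subunits of the GABA-A receptor, the main inhibitory receptor, 5 were higher and 1 was lower in the prefrontal gyri (median 0.28). *GABRA2* (log2FC 0.31 ± 0.06, FDR = 0.00249) and *GABRA4* (log2FC 0.47 ± 0.11, FDR = 0.00778) were higher in 8 of 8 animals, *GABRB2* (log2FC 0.50 ± 0.16, FDR = 0.0417) in 6, and the others, named after their values were seen, were *GABRG3* (0.34) and *GABRG1* (0.29). The subunit *GABRE* was lower in all 8 animals, with 1.46 to 4.04 CPM (median 2.51) against 1.68 to 6.81 CPM (median 5.13) (log2FC -0.85 ± 0.12, FDR = 0.000195). In the pan-neuronal list DESeq2 called 4 genes higher and 1 lower in the prefrontal gyri. By edgeR 4 of the 10 pan-neuronal genes were called, all higher in the prefrontal gyri. They were the calcium sensor *SYT1* (log2FC 0.38 ± 0.06, FDR = 0.000321), the microtubule protein *MAP2* (log2FC 0.38 ± 0.11, FDR = 0.0335), the RNA-binding protein *ELAVL4* (log2FC 0.25 ± 0.08, FDR = 0.0395) and synapsin 1, *SYN1* (log2FC 0.24 ± 0.07, FDR = 0.0337). The list's mean log2(CPM + 1) was higher by 0.12 ± 0.090 (SD) in 7 of 8 animals (exact sign-flip permutation p = 0.0156, adjusted p = 0.026). The log2FC was above 0 for 8 of the 10 genes. The exceptions, named after their values were seen and not called by edgeR, were *SNAP25* (log2FC -0.19 ± 0.06, FDR = 0.0554) and *RBFOX3* (log2FC -0.10 ± 0.05, FDR = 0.144). The calls of *MAP2*, *SYN1*, *ELAVL4* and *GABRB2* were lost without any 1 of Rhesus 2, 3 and 4 and further animals (log2FC 0.27 to 0.39, 0.20 to 0.25, 0.20 to 0.26 and 0.38 to 0.55). The pan-neuronal level moved in the same direction as the receptor lists, and its part in them was not tested.

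Genes that guide growing axons in development and stay active in adult cortex were mostly higher in the prefrontal gyri where called. Of 51 tested members 20 were higher, against 9.52% of all genes, and 3 lower, against 8.65% (median 0.14). *SLIT1*, a repulsive ligand, had 56.9 to 142 CPM (median 80.8) against 28.3 to 74.8 CPM (median 43) (log2FC 0.88 ± 0.07, FDR = 9.78e-07). *PLXNC1*, a semaphorin receptor, had 101 to 143 CPM (median 129.7) against 55.1 to 89.7 CPM (median 74.2) (log2FC 0.78 ± 0.07, FDR = 5.71e-06), and its ranges did not overlap. The secreted semaphorin *SEMA3C* (log2FC 0.72 ± 0.09, FDR = 6.09e-05) and the receptor *PLXND1* (log2FC 0.44 ± 0.06, FDR = 7.24e-05) were higher in 8 of 8 animals. The largest value of the list was that of the secreted semaphorin *SEMA3A* (log2FC 1.09 ± 0.21, FDR = 0.00249), named after it was seen. Lower, and named after their values were seen, were the netrin receptor *UNC5B* (log2FC -0.54 ± 0.13, FDR = 0.0104), *PLXNB1* (-0.33) and neuropilin 1, *NRP1* (-0.24).

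Transcription factors that pattern the cortex were called in both directions, 6 of 24 tested members higher and 5 lower in the prefrontal gyri (median 0.02). The zinc finger factors *TSHZ3* and *TSHZ2* stood out. *TSHZ3* had 21.9 to 37.8 CPM (median 32.8) against 12.9 to 18.1 CPM (median 16.6) (log2FC 1.01 ± 0.06, FDR = 2.49e-07), and *TSHZ2* had 1.66 to 6.09 CPM (median 2.38) against 0.250 to 1.38 CPM (median 0.769) (log2FC 1.90 ± 0.21, FDR = 1.92e-05). For both genes every prefrontal sum was above every precentral sum. *NEUROD6*, a factor of excitatory neurons (log2FC 0.70 ± 0.06, FDR = 3.7e-06), and *NR2F1*, an orphan nuclear receptor that sets area identity (log2FC 0.41 ± 0.06, FDR = 0.00024), were higher in 8 of 8 animals. The other higher members, *ZIC1* (0.38) and *ETV5* (0.17), and the lower ones besides *FGFR3* and *MEIS2*, which were *MEIS1* (-0.45), *NFIB* (-0.28) and *PAX6* (-0.20), are named after their values were seen.

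Retinoic acid is graded along the developing frontal cortex, and of 20 tested genes of its signalling list 2 were higher and 4 lower in the prefrontal gyri (median -0.03). The share higher was near the 9.52% of all genes. *CYP26B1*, the enzyme that degrades retinoic acid, had 14.8 to 37.6 CPM (median 25.7) against 5.55 to 30.9 CPM (median 11.4) (log2FC 0.95 ± 0.14, FDR = 0.000314), and the receptor *RARB* was higher as well (log2FC 0.41 ± 0.08, FDR = 0.00212). *CBLN2*, a synaptic organizer known as a retinoic acid target in prefrontal cortex, was lower on the prefrontal side in all 8 animals, with 284 to 341 CPM (median 322) against 331 to 447 CPM (median 354) (log2FC -0.23 ± 0.05, FDR = 0.00728). *MEIS2*, a factor regulated by retinoic acid, was lower in 7 of 8 animals (log2FC -0.21 ± 0.06, FDR = 0.0177), a call lost without Rhesus 4 (log2FC -0.20). A further lower member, named after its value was seen, was *ALDH1A1* (-0.14).

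Immediate early genes, which neurons switch on with activity, were mostly higher in the prefrontal gyri, 7 of 12 tested members against 1 lower (median 0.41). The nuclear receptor *NR4A3* had 19 to 40.3 CPM (median 28.1) against 8.39 to 21.4 CPM (median 10.8) (log2FC 1.17 ± 0.10, FDR = 1.34e-06). *NPAS4*, a neuron-specific activity factor, had 4.46 to 12.2 CPM (median 6.55) against 0.491 to 9.07 CPM (median 2.41) (log2FC 1.37 ± 0.24, FDR = 0.00104), a wide spread on both sides. *NR4A1* (log2FC 0.72 ± 0.07, FDR = 8.23e-06) and *EGR2* (log2FC 0.67 ± 0.08, FDR = 2.8e-05) were higher in 8 of 8 animals, and *ATF3*, a stress-responsive factor named after its value was seen, was lower (log2FC -0.48 ± 0.13, FDR = 0.0208).

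The lists of the other glia and of vessels had medians closer to 0 than that of myelin, at -0.05 for oligodendrocyte precursors, -0.11 for astrocytes, 0.01 for microglia and -0.23 for endothelial cells and pericytes. Of the oligodendrocyte precursor list 2 of 6 tested members were lower in the prefrontal gyri, *BCAS1*, a gene of newly formed oligodendrocytes (log2FC -1.28 ± 0.08, FDR = 1.96e-07), and the lineage factor *OLIG2* (log2FC -0.49 ± 0.06, FDR = 6e-05). Its mean log2(CPM + 1) ran from 4.49 to 5.00 in the prefrontal and 4.78 to 5.24 in the precentral sums, a difference of -0.29 and lower in 8 of 8 animals (exact sign-flip permutation p = 0.00781, adjusted p = 0.0156). The other 4 members, named after their values were seen, were not called and had log2FC near 0. They were *PDGFRA* (-0.008), *CSPG4* (0.01), *PCDH15* (0.12) and *GPR17* (-0.09), so the difference in the mean came mostly from *BCAS1* and *OLIG2*. The astrocyte list had 3 of 8 lower, *FGFR3* (log2FC -0.28 ± 0.06, FDR = 0.00317), *GJB6* (log2FC -0.18 ± 0.06, FDR = 0.0338) and *ALDH1L1* (log2FC -0.18 ± 0.06, FDR = 0.0334), and its mean log2(CPM + 1) ran from 7.54 to 8.07 in the prefrontal and 7.67 to 8.14 in the precentral sums (exact sign-flip permutation p = 0.109, adjusted p = 0.156). Of the endothelial and pericyte list 4 of 8 were lower, the VEGF receptor *FLT1* (log2FC -0.42 ± 0.07, FDR = 0.000475), the glucose transporter *SLC2A1* (log2FC -0.24 ± 0.04, FDR = 0.00145), *ESAM* (log2FC -0.38 ± 0.07, FDR = 0.00252) and von Willebrand factor, *VWF* (log2FC -0.27 ± 0.07, FDR = 0.019). That list's level ran from 4.67 to 5.36 in the prefrontal and 4.91 to 5.54 in the precentral sums, lower on the prefrontal side in 8 of 8 animals (exact sign-flip permutation p = 0.00781, adjusted p = 0.0156). The microglia list ran from 3.41 to 4.06 in the prefrontal and 3.44 to 3.89 in the precentral sums (exact sign-flip permutation p = 0.734, adjusted p = 0.734). The calls of *ALDH1L1*, *GJB6* and *VWF* were lost without any 1 of several animals, Rhesus 10 among them for all 3 (log2FC -0.19 to -0.15, -0.18 to -0.16 and -0.27 to -0.25). The part of these cells in the results above was not tested.

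Lists of tissues near the cortex or of striatal neurons also held called genes, and where their RNA came from was not tested. The choroid plexus and ependyma list had 2 of 3 tested members higher in the prefrontal gyri, the FGF co-receptor klotho, *KL* (log2FC 0.77 ± 0.12, FDR = 0.000516) and the chloride channel *CLIC6* (log2FC 0.38 ± 0.11, FDR = 0.0235), and 1 of its 5 genes in the table was at 0 in every sum. Its mean log2(CPM + 1) was higher in 8 of 8 animals by 0.25, at 1.85 to 3.12 in the prefrontal and 1.54 to 2.89 in the precentral sums (exact sign-flip permutation p = 0.00781, adjusted p = 0.0156). The third tested member, *FOXJ1*, named after its value was seen, had the opposite sign and was not called (log2FC -0.56 ± 0.19, FDR = 0.0559). It was higher on the prefrontal side in 1 of 8 animals. In the meninges and fibroblast list, fibromodulin, *FMOD*, was higher (log2FC 1.54 ± 0.25, FDR = 0.000633) and the transporter *SLC22A6* lower (log2FC -0.37 ± 0.09, FDR = 0.0148) among 6 tested. Without Rhesus 2 or without Rhesus 11 *FMOD* did not pass the filter on low counts and was not tested. The list's mean log2(CPM + 1) ran from 2.20 to 2.95 in the prefrontal and 2.20 to 3.11 in the precentral sums (exact sign-flip permutation p = 0.344, adjusted p = 0.382). The striatal list had 3 of 7 higher, *GPR6*, *PDE10A* (log2FC 0.71 ± 0.16, FDR = 0.00729) and *DRD2* (log2FC 0.67 ± 0.20, FDR = 0.0315), while *PPP1R1B*, an abundant striatal signalling protein, was lower (log2FC -0.14 ± 0.04, FDR = 0.0365). That list's mean log2(CPM + 1) ran from 3.85 to 4.04 in the prefrontal and 3.47 to 3.88 in the precentral sums, a difference of 0.27 and higher in 8 of 8 animals (exact sign-flip permutation p = 0.00781, adjusted p = 0.0156). The calls of *CLIC6*, *DRD2* and *PPP1R1B* were lost without any 1 of Rhesus 2 and 4 and further animals (log2FC 0.31 to 0.38, 0.49 to 0.67 and -0.15 to -0.13). The 1 tested blood gene was not called (edgeR 0, DESeq2 0, unadjusted p under 0.05 for 0), with a mean log2(CPM + 1) of 1.96 to 3.32 in the prefrontal and 2.27 to 3.69 in the precentral sums.

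Because the posterior superior frontal gyrus borders the precentral side, SFG was also set against MFG and IFG. Of 14954 genes tested 436 (2.92%) were called, 274 (1.83%) higher and 162 (1.08%) lower in SFG. All 10 myelin genes were higher in SFG, with a median log2FC of 1.00. *MBP* had 954 to 2374 CPM (median 1343) in the SFG libraries, 429 to 1139 CPM (median 834) in MFG and 665 to 994 CPM (median 811) in IFG (log2FC 0.77 ± 0.10, FDR = 0.00143). Within the prefrontal side the myelin level was thus not uniform. The mean log2(CPM + 1) of the list was 4.85 ± 0.31 (SD, n = 8) in MFG, 4.96 ± 0.25 in IFG, 5.77 ± 0.49 in SFG, 6.73 ± 0.37 in SPrCG and 6.40 ± 0.32 in IPrCG. SFG stood between MFG and IFG on one side and the precentral gyri on the other.

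Some genes split the prefrontal side completely. *CD53* had 15.3 to 32.1 CPM (median 24.4) in SFG, 60 to 121 CPM (median 93.6) in MFG and 57.3 to 124 CPM (median 80.7) in IFG (log2FC -1.88 ± 0.11, FDR = 1.91e-05). Every SFG library was below every MFG and IFG library, and the SFG values fell within or near the range of SPrCG, 18.2 to 29.5 CPM (median 20.4). *TSHZ3* had 16 to 21 CPM (median 17.1) in SFG against 23 to 51 CPM (median 42.5) in MFG (log2FC -1.09 ± 0.09, FDR = 0.000167), again without overlap. *HTR3A* (log2FC -1.87 ± 0.18, FDR = 0.00071), *CYP26B1* (log2FC -1.52 ± 0.16, FDR = 0.00071), *CARTPT* (log2FC -2.33 ± 0.40, FDR = 0.00911), *SMYD1*, a histone methyltransferase of muscle (log2FC -2.12 ± 0.31, FDR = 0.00343), and *NR2F1* (log2FC -0.53 ± 0.06, FDR = 0.00111) were lower in SFG. Higher in SFG were *CLEC10A*, a lectin of macrophages (log2FC 2.13 ± 0.19, FDR = 0.000369), *GDF10*, a growth factor of the BMP family (log2FC 1.63 ± 0.18, FDR = 0.00087), the matrix phosphoprotein *DMP1* (log2FC 1.97 ± 0.30, FDR = 0.00412) and *CBLN2* (log2FC 0.62 ± 0.05, FDR = 0.000167). *CBLN2* had 363 to 436 CPM (median 420.3) in SFG against 203 to 352 CPM (median 279.6) in MFG, so every SFG library was above every MFG library, and its prefrontal sum mixes a high and a low level.

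SFG alone was then set against the precentral gyri, a comparison added after the SFG values were seen and one that shares libraries with both comparisons above. Of 14830 genes tested 365 (2.46%) were called, 176 (1.19%) higher and 189 (1.27%) lower in SFG. The 10 myelin genes were all lower in SFG than in the precentral gyri (median -0.85), *MBP* among them (log2FC -1.06 ± 0.08, FDR = 0.000159). *CRYM* (log2FC 0.93 ± 0.10, FDR = 0.00182), *PDYN* (log2FC 0.90 ± 0.13, FDR = 0.00454) and *RXFP1* (log2FC 0.92 ± 0.21, FDR = 0.041) were higher in SFG than in the precentral gyri, and so was *MCHR2*, a receptor of melanin-concentrating hormone (log2FC 1.18 ± 0.11, FDR = 0.000794). For *CD53* (log2FC 0.11 ± 0.11, FDR = 0.649), *TSHZ3* (log2FC 0.19 ± 0.08, FDR = 0.298), *HTR3A* (log2FC 0.22 ± 0.24, FDR = 0.69), *NR2F1* (log2FC 0.03 ± 0.08, FDR = 0.902), *CLEC10A* (log2FC 0.05 ± 0.16, FDR = 0.913) and *CBLN2* (log2FC 0.16 ± 0.05, FDR = 0.136) no difference from the precentral gyri was detected. *ART3*, an ADP-ribosyltransferase family member, was lower in SFG than on either side, at log2FC -1.24 against MFG and IFG and -1.48 against the precentral gyri.

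The SFG library of Rhesus 4 weighed on both SFG comparisons. Its median correlation with the other 4 libraries of its animal was 0.965, against 0.977 to 0.991 for the SFG libraries of the other animals. Some libraries of other sub-regions were nearly as low, with 0.969 for IPrCG of Rhesus 3 and 0.971 for IPrCG of Rhesus 8 and MFG of Rhesus 7. Without Rhesus 4, 2053 genes (1145 higher and 908 lower in SFG) were called against MFG and IFG, and 2246 (1306 higher and 940 lower) against the precentral gyri. Leaving out any other single animal instead gave 218 to 378 calls against MFG and IFG, and 142 to 261 against the precentral gyri. Without Rhesus 4 *CD53* had log2FC -1.90 ± 0.10, FDR = 3.21e-09 against MFG and IFG, *MBP* had log2FC 0.79 ± 0.09, FDR = 1.29e-05, and *CARTPT* had log2FC -2.90 ± 0.26, FDR = 2.15e-06. Without this animal *CBLN2* was called higher in SFG than in the precentral gyri (log2FC 0.17 ± 0.05, FDR = 0.0473).

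The place of SFG was described over the 2868 genes called between MFG with IFG and the precentral gyri when SFG was left out. On the log2(CPM + 1) scale SFG was nearer the precentral mean for 1339 of them (46.7%). It stood at a median of 52.1% of the way from the precentral mean to the mean of MFG and IFG (quartiles 33.5% and 69.8%). SFG was between the 2 means for 2548 genes, beyond the precentral mean for 178 and beyond the mean of MFG and IFG for 142. The genes were chosen for a gap between these means in the same animals. That choice favours a place between them, so the count between is a description and not a test. The share nearer the precentral side was 46.3% of the 1402 genes higher in MFG and IFG and 47.1% of the 1466 genes higher in the precentral gyri.

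**Figure D4:**
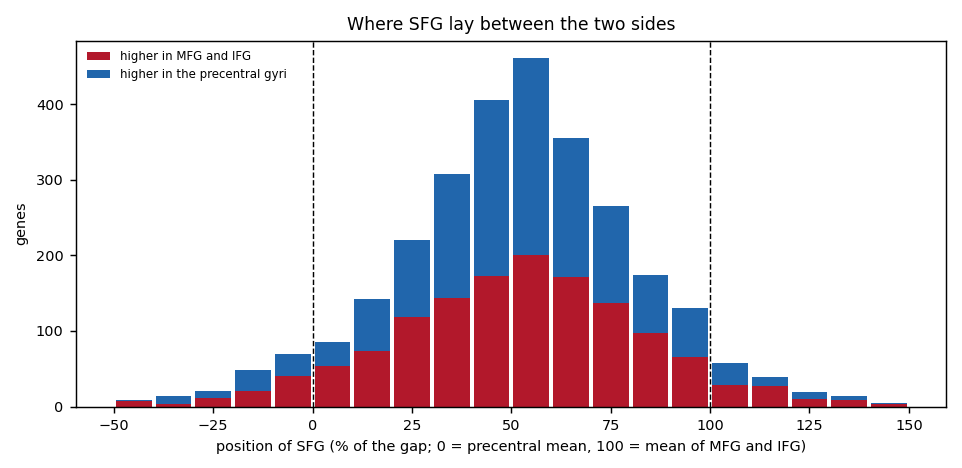
Number of genes by the position of SFG between the precentral mean (0%) and the mean of MFG and IFG (100%) on the log2(CPM + 1) scale, for the genes called when SFG was left out, red where MFG and IFG and blue where the precentral gyri were higher. The bars peak near the middle of the gap for both directions, and 23 genes outside the plotted range are not drawn.

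No difference between the 2 precentral gyri passed the test. Between SPrCG and IPrCG 0 of 14330 genes (0%) were called by edgeR, 725 had an unadjusted p under 0.05, and DESeq2 called 3.

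A second pair of regions that shares no library with the first, though it comes from the same animals, set the anterior superior frontal gyrus (ASFG) and the anterior arcuate sulcus gyrus (AASG) against the superior and inferior postcentral gyri (SPCG, IPCG), which hold the somatosensory cortex. It called 5110 of 15324 genes (33.3%), 2678 (17.5%) higher in the anterior frontal and 2432 (15.9%) higher in the postcentral gyri. Of the 1482 genes higher in the prefrontal gyri that were tested here, 961 (64.8%) were called higher in the anterior frontal gyri, which is 35.9% of the genes called in that direction, and 54 (3.64%) were called higher in the postcentral gyri. For the 1340 genes higher in the precentral gyri the same direction was called for 764 (57%), or 31.4% of the genes higher in the postcentral gyri, and the opposite for 46 (3.43%). The myelin genes were all higher in the postcentral gyri (median -0.98), and so were 15 of 18 fast-spiking genes and all 4 neurofilament genes. The anterior frontal side was not uniform in this. The mean log2(CPM + 1) of the myelin list was 4.61 in ASFG and 5.98 in AASG, against 6.35 in SPCG and 6.41 in IPCG. Mean levels in ASFG and AASG were 67.2 and 189 CPM for *NEFH*, and 15.7 and 52.1 CPM for *PVALB*. *NEFH* (log2FC -1.34 ± 0.09, FDR = 1.26e-08) and *PVALB* (log2FC -1.34 ± 0.09, FDR = 5.3e-09) differed by more here than between the prefrontal and precentral gyri in the point estimates. The difference between the contrasts was not tested.

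*CRYM* (log2FC 0.91 ± 0.08, FDR = 8.06e-08), *CD53* (log2FC 1.57 ± 0.08, FDR = 5.16e-10), *ATP2B4* (log2FC 1.59 ± 0.12, FDR = 4.2e-08), *CARTPT* (log2FC 1.77 ± 0.21, FDR = 5.77e-06) and *SLIT1* (log2FC 0.86 ± 0.08, FDR = 1.83e-07) were higher in the anterior frontal than in the postcentral gyri as well. Unlike in the main comparison, all 5 tested microglia genes were also called higher in the anterior frontal gyri (median 0.34), against 17.5% of all genes. The part of microglia in the *CD53* difference was not tested. *HTR3A* (log2FC -0.04 ± 0.14, FDR = 0.838), *TRABD2A* (log2FC -0.06 ± 0.21, FDR = 0.842), *TSHZ3* (log2FC -0.10 ± 0.06, FDR = 0.22) and *NR2F1* (log2FC -0.07 ± 0.06, FDR = 0.363) were not called there. Some genes were called in opposite directions. *CBLN2* was higher in the anterior frontal gyri (log2FC 1.30 ± 0.07, FDR = 5.99e-10) but lower in the prefrontal sums. *THBS4* (log2FC 0.96 ± 0.16, FDR = 0.000146) and *SERPINE2* (log2FC 0.36 ± 0.05, FDR = 2.07e-05) had the same pair of directions. *THBS4* had a mean of 1.43 CPM in ASFG and 3.17 CPM in AASG. *RORB* was higher in the postcentral gyri (log2FC -0.68 ± 0.09, FDR = 1.94e-05), which have a well-developed layer 4, and *CYP26B1* was higher there too (log2FC -0.56 ± 0.14, FDR = 0.00415). By the naming rule the leading genes of this contrast included the receptor tyrosine kinase *MET*, with 4.93 to 16.5 CPM in the anterior frontal and 20.8 to 83.8 CPM in the postcentral gyri (log2FC -2.61 ± 0.13, FDR = 3.69e-10). Between the prefrontal and precentral gyri *MET* was not called (log2FC 0.38 ± 0.17, FDR = 0.133). *PF4V1* (-3.38) and *ISLR* (-2.44) led in the same direction as *MET*. In the other direction *CLIC6* led, with 4.32 to 16.3 CPM against 0.132 to 2.08 CPM (log2FC 3.64 ± 0.21, FDR = 1.19e-09), before *NPPA* (2.78) and *SPAG17* (2.76). *CLIC6* is in the choroid plexus and ependyma list, of which 2 of 3 tested members were called higher and 1 lower in the anterior frontal gyri. Where this RNA came from was not tested.

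Over the 31 cortical sub-regions of the atlas, ranked by the mean CPM of the 8 animals from the highest down, the precentral gyri stood at the ends of the order for many of these genes. SPrCG ranked 1 and IPrCG 2 for *MBP*, with SFG at 20, MFG at 25 and IFG at 26. For *RXFP1* IPrCG ranked 31, SPrCG 30 and SFG 29, while MFG ranked 9 and IFG 12. *TSHZ3*, *NR2F1*, *PDYN* and *CARTPT* each had SPrCG at rank 31 and IPrCG at rank 30. For *KCNC1* IPCG ranked 1 and SPCG 2, and SPrCG ranked 9 and IPrCG 15, above SFG at 21, MFG at 22 and IFG at 23. *CD53* had MFG at rank 4 and IFG at 5, against 24 for SFG, 25 for SPrCG and 27 for IPrCG. For *CBLN2* SFG ranked 1, IPrCG 2 and SPrCG 3 of all 31. Neighbouring ranks were not tested, and the ranks describe means only.

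**Figure D5:**
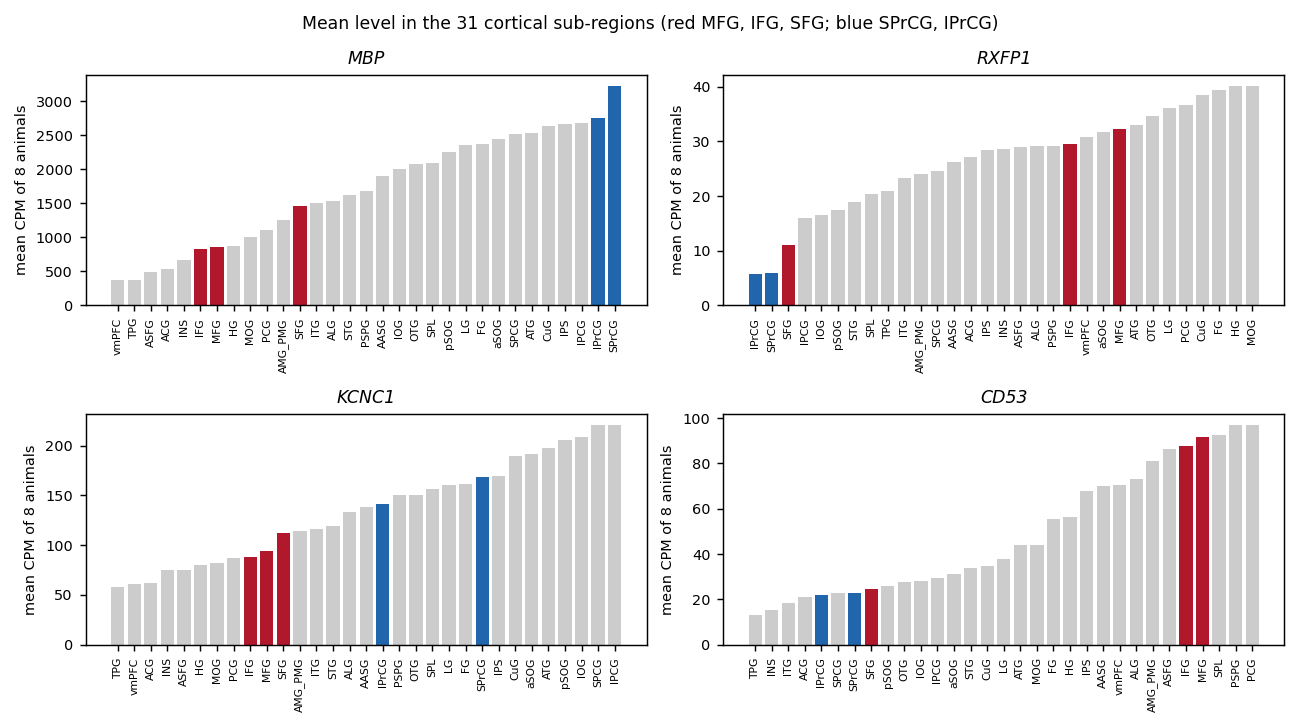
Mean CPM of 8 animals in each of the 31 cortical sub-regions, in rising order, for *MBP*, *RXFP1*, *KCNC1* and *CD53*, with MFG, IFG and SFG in red and SPrCG and IPrCG in blue. The precentral gyri are at the top of the order for *MBP* and at the bottom for *RXFP1*, and SFG is next to the precentral gyri in the order for *RXFP1* and near them for *CD53*.

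Whether the difference between prefrontal and precentral gyri changed with age stage or sex was tested as an interaction, 4 animals against 4. For age stage edgeR called 0 of 15647 genes (0%), 279 had an unadjusted p under 0.05 and DESeq2 called 0. For sex edgeR also called 0, 1229 genes had an unadjusted p under 0.05 and DESeq2 called 0. On simulated counts of this design the test recovered 36 of 100 genes whose difference itself differed 1.5-fold and 77 of 100 at 2-fold, so smaller differences between age stages or sexes could be missed.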

How the data were processed

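RNA was measured by ribosomal RNA-depleted, strand-marking sequencing in brain sub-regions of 8 animals. The count table used here holds 408 libraries from 51 sub-regions, and 33 chromatin accessibility samples were not analysed here. The authors deposited raw read counts per gene for each library, made with FastQC 0.11.4, Trim Galore 0.4.4, HISAT2 2.0.5 and HTSeq 0.6.1 per the labels on the Mmul 8.0.1 build with Ensembl genes. How the counting treated strand and overlaps is not given in the sources used here, so overlapping, antisense or near-identical genes may share reads. Gene symbols came from a table of gene IDs, in which 17572 of 30807 genes had one, and 338 of 415 listed genes were found. Of the 24 panel genes, 3 were not matched. Some genes that met the rule are not reported here. No genome of this build was used, and no coordinates are given.

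From the deposited counts, sub-region libraries were summed per animal and side, 8 sums against 8, with 8156579 to 16850230 counts per library. Genes were filtered by filterByExpr, scaled by TMM and tested with edgeR 4.0.16 (R 4.3.3) by quasi-likelihood with the animal as a block, with Benjamini-Hochberg adjustment over all genes tested. The numbers in the labels name the same animal in every sub-region, which is the source of the pairing. The deviations of an animal's 2 sums from their side means correlated at 0.494 to 0.862 over 14399 genes in 8 of 8 animals, each best with its own animal. DESeq2 1.42.0, its size factors, no filter, no block, each animal or sub-region left out, the 40 libraries fitted singly and the myelin level as a covariate were the alternatives. The comparison of SFG with the precentral gyri was added after the data were seen. Marker lists were summarised as the mean log2(CPM + 1), with 0.1 as the other pseudocount, and tested by exact sign-flip permutation over the 8 animals. Because each sum is 1 animal, the p-values cover the spread between these animals.

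Named genes were, in each direction, the 12 with the largest log2FC among genes called, of at least 1 CPM on the higher side and of 1 direction in 8 of 8 animals, the 4 members of each list with the smallest FDR among those called, a panel of 24 genes, and 3 a direction by the first rule for each other test. Genes outside this rule are said to have been named after their values were seen. The sub-regions, the 25 gene lists and the tests were chosen with earlier results of these data known. Of the 25 lists, that of mitochondrially encoded subunits matched 0 genes and gave no result. On simulated counts for prefrontal against precentral gyri (15546 genes) the test recovered 83 of 100 genes changed 1.5-fold and 96 of 100 changed 2-fold, with 11 other calls. The simulation of the age stage and sex test had 15554 genes and 10 other calls.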

Additional observations from a re-analysis of the deposited data

Results flagged for a closer look

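The difference between the prefrontal and the precentral sum of each animal, in log2(CPM + 1), was examined for an animal standing apart from the other 7, and 11 of 116 sets of 8 differences held one. Chance gives about 1 in 20 for a single set. The sets share the same 8 animals, and the lists share genes with the single-gene sets. The count therefore cannot be read as an excess over chance. Rhesus 6 was that animal in 8 of the 11. Its difference was the lowest for the myelin list (-1.92, median of the 8 animals -1.28), *BCAS1* (-1.89, median -1.21), *INA* (-0.69, median -0.21), *NEFM* (-1.23, median -0.23), *NEFL* (-0.77, median -0.007), *ELAVL4* (-0.33, median 0.25) and *SYT1* (0.0095, median 0.42), and the highest for *MEIS2* (0.16, median -0.24). Rhesus 8 had the lowest difference for *OLIG2* (-0.83, median -0.46) and the highest for *GRM8* (0.89, median 0.48). Rhesus 7 had the highest difference for *PPP1R14A* (-0.41, median -1.34). Without Rhesus 6 the number of genes called between the prefrontal and precentral gyri was 3084, and without Rhesus 7 it was 3562. No gene's difference was called as dependent on age stage or sex by edgeR, 279 and 1229 genes having an unadjusted p under 0.05, with 0 called by DESeq2 for either.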

How the results depend on the processing

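Between the prefrontal and precentral gyri 2842 genes were called, against 2935 with DESeq2, 2853 with its size factors, 3202 with no filter and 3579 from single libraries. The count was 2068 to 3562 without 1 animal, 1792 without IFG, 1336 without SPrCG and 114 (73 higher in the prefrontal gyri) with the myelin level as a covariate, of which 55 were among the 2842, 4 with the opposite sign. Without the animal as a block, which ignores the pairing, counts fell to 594 here, to 74 for SFG against MFG and IFG and to 1405 for the anterior frontal against the postcentral gyri, and the calls of 47 named genes were lost. The count stayed at 0 for SPrCG against IPrCG, age stage and sex, and for SFG against the precentral gyri no fit without the block was made. Leaving out 1 animal gave 218 (without Rhesus 3) to 2053 (without Rhesus 4) calls for SFG against MFG and IFG, 142 (without Rhesus 7) to 2246 (without Rhesus 4) for SFG against the precentral gyri, and 3810 to 5725 for the anterior frontal against the postcentral gyri. Between SPrCG and IPrCG DESeq2 called 3 genes and the fit with no filter 4, and with no filter 1 gene was called for age stage and 1 for sex. The cause of these changes was not tested. The meninges and fibroblast list differed by 0.238 (exact permutation p = 0.0469) with a pseudocount of 0.1, against 0.0962 (p = 0.344). Leaving out 1 animal moved the microglia list from -0.0447 to 0.0026 (without Rhesus 3) and the blood gene from -0.0842 to -0.203 (without Rhesus 4, exact permutation p = 0.0469). With the myelin level as a covariate 69 of 101 named genes lost the call with no change of sign.

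Signs turned in the fit with the myelin covariate for *CNDP1* (0.94), *TMEM125* (0.37), *NPC1L1* (0.82), *ANLN* (0.51), *GJB6* (0.15), *KL* (-0.95), *CLIC6* (-0.55), *CALB1* (-0.12), *CALB2* (-0.15), *CUX2* (-0.64), *BCL11B* (-0.55), *NEFH* (1.07), *INA* (0.56), *NEFM* (1.55), *NEFL* (1.42), *ESRRA* (0.026), *PVALB* (1.02), *TNC* (-0.41), *GRIK5* (-0.0031), *CYP26B1* (-0.30), *NR2F1* (-0.024) and *ADRA2A* (-0.51), none of them called there. *VWF* turned without IPrCG (0.076). *NEFL* turned without SPrCG (0.043) and ran from -0.097 (without Rhesus 7) to 0.040 (without Rhesus 6) over the fits without 1 animal. *BCL11B* turned without SFG (-0.025) and without IPrCG (-0.020) and ran from -0.026 (without Rhesus 3) to 0.138. Of the 96 named genes called, 82 were called in each of the 8 fits without 1 animal, *MEIS2* and *VWF* lost the call in 1 and 3 of them, 11 genes lost it in 4 or more, and *FMOD* was called in the 6 in which it was tested. Calls were lost for 6 named genes without MFG, 13 without IFG, 6 without SFG, 20 without SPrCG and 10 without IPrCG.

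SFG, SPrCG and IPrCG were single libraries of each animal, and how far their depth limits the calls was not tested. The counts of calls for SFG vary with the Rhesus 4 library.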
